A study of Rattus norvegicus with 6 samples.

Results

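The 10 genes described here belong to MHC class I antigen processing and were followed in the thyroid of rats in late pregnancy. They were chosen by symbol for their role in the pathway (B2m, Tap1, Tap2, Tapbp, Psmb8, Psmb9, Psmb10, Nlrc5, Psme1 and Erap1). The choice was made with earlier results of these data known. Of the 10 genes listed, 8 were measured among the 15388 genes counted in each sample. Tap1 and Tap2, both subunits of the peptide transporter, were not analysed here. Thyroid tissue came from adult Sprague-Dawley rats, which were either non-pregnant (NP, 3 samples) or on day 18 of pregnancy (LP, 3 samples), the day of the vaginal plug being day 1. Ages were not given, and no other treatment is named for either group.

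MHC class I molecules show fragments of the cell's own proteins to CD8 T cells and natural killer cells. Proteins are cut by the proteasome, whose standard catalytic subunits are replaced by Psmb8, Psmb9 and Psmb10 in the immunoproteasome, and peptides enter the endoplasmic reticulum (ER) through the Tap1/Tap2 transporter. There Erap1 trims them and tapasin (Tapbp), with the chaperones calreticulin and calnexin and the disulfide isomerase Pdia3, loads them onto a heavy chain paired with beta-2 microglobulin (B2m). Interferons raise many of these genes through STAT and IRF transcription factors, and Nlrc5 is the transactivator that acts on class I promoters. In the thyroid, class I on follicular cells has been studied mainly in autoimmune thyroid disease.

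Depth was 2752144 to 2965936 counted reads in the NP samples and 3224104 to 3449857 in the LP samples, and 3 reads, the limit that a count of 0 allows, came to 0.87 to 1.09 CPM (reads scaled by library size). That limit covers counting error alone. Within each group, the reads of replicates 2 and 3 agreed to within sampling noise (chi-square per degree of freedom 1.02, p = 0.111, in NP, and 0.995, p = 0.667, in LP), whereas replicate 1 stood apart from them (3.70 to 4.11). Each such pair therefore enters a mean ± SD as a single sample (n = 2), while the test used all 6 libraries. The p-values may in part measure technical rather than animal-to-animal spread. The follicular cell markers, led by thyroglobulin (Tg), summed to 232200 to 250700 CPM in NP and 242500 to 259100 CPM in LP, nearly all of it Tg. Of the 10 markers, 2 rose (Nkx2-1 and Duox2) and 3 fell (Slc5a5, Tshr and Hhex). The lowest log2 fold change was -0.94 (Slc5a5, the iodide transporter). Duox2 did not pass with DESeq2 (adjusted p = 0.16, edgeR 0.0095). Markers of C cells summed to 14290 to 15270 CPM in NP and 12620 to 13420 in LP, and those of the parathyroid, which lies beside the thyroid, to 4474 to 4848 and 3730 to 4045 CPM. Both sums were lower in every LP sample, and Calca and Pth fell (adjusted p = 3.65e-08 and 3.42e-06). Of the 6 C cell markers tested, 1 fell and 1 rose. The latter was Scg2 (log2 fold change 0.42, edgeR adjusted p = 0.0058, DESeq2 0.099). Of the 3 parathyroid markers tested, 2 had a positive log2 fold change and did not pass. Skeletal muscle markers were high in LP, as given below with the class I values.

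The promoter windows of 4 members are shown because each holds the letters of the core bound by IRF factors. They include 2 genes that passed the test (Tapbp and Psmb8) and 2 that did not (Psmb10 and B2m). Whether these genes differed in response was not tested. Windows ran from 250 bases before to 50 bases after the annotated start (RefSeq, rat build GRCr8), and 8 of the 10 genes had one, Nlrc5 and Erap1 being the exceptions. Searched on both strands were GAAANNGAA (the core bound by IRF factors), TTCNNNGAA (the STAT site), TGACG (the X2 box core of class I promoters) and CCAAT (the Y box). Matches are in capitals. The windows lie at chr20:4967828-4968127, minus strand (Tapbp), chr20:4656982-4657281, minus strand (Psmb8), chr19:50743243-50743542, minus strand (Psmb10) and chr3:129549080-129549379, plus strand (B2m).
Tapbp: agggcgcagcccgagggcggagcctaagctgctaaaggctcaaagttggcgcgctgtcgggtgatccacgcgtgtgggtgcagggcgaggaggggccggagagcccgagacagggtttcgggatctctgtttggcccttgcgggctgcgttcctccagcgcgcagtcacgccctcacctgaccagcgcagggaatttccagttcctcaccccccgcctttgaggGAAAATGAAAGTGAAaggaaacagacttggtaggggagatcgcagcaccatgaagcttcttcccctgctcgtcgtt
Psmb8: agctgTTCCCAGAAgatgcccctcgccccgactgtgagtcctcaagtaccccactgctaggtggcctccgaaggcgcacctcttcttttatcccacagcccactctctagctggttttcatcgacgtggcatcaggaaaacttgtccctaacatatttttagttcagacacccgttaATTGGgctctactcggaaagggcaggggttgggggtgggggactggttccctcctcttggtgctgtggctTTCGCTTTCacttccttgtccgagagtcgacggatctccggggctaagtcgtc
Psmb10: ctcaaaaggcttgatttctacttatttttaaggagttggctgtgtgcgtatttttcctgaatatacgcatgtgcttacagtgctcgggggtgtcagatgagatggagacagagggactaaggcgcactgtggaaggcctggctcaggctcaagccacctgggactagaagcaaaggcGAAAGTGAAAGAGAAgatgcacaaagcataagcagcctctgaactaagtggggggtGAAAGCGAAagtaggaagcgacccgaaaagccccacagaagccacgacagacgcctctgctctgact
B2m: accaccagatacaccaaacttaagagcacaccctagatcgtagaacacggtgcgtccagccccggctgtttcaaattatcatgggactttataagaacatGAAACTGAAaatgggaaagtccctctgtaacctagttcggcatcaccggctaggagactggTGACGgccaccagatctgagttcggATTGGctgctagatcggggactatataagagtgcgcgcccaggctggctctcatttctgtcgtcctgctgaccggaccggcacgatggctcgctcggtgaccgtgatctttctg
The IRF core was found in 6 of the 8 member windows, against 9.71% of all 33469 windows. It began 26 and 20 bases before the start in Tapbp (overlapping matches), 3 bases before in Psmb8, 73, 67 and 17 bases before in Psmb10 (the farther pair overlapping) and 150 bases before in B2m. Among the windows shown, only that of B2m held both TGACG and the Y box, the latter on the other strand (ATTGG). They began 89 and 64 bases before the start. TGACG was found in 2 member windows and 21.2% of all windows, the Y box in 3 and 37.5%, and the STAT site in 1 (Psmb8) and 8.87%. Tap1 and Psmb9 are neighbours that are read in opposite directions, and their windows shared 44 bases. Tap1 and Tap2 windows are counted here although their RNA was not analysed. The Tap1 window held an IRF core and the Psmb9 window did not. A match describes the letters of the window and does not show that a factor binds there.

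Of the 8 members, 3 rose in LP and 0 fell in edgeR's quasi-likelihood test (adjusted p below 0.05 over the 11738 genes tested), and the other 5 did not pass. The 3 were the loading factor Tapbp, the immunoproteasome subunit Psmb8 and the transactivator Nlrc5. For comparison, 15.3% of all genes tested rose and 11.7% fell. None of the members reached the 2-fold criterion of the study, which 4.9% of all genes tested passed as higher in LP. The median log2 fold change of the 8 members was 0.12, against -0.0089 over all genes tested. Every LP sample lay above every NP sample for these 3 members and for 21.2% of all genes tested. No member had an unadjusted p below 0.05 in the downward direction, and DESeq2 called 0 lower as well.

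**Figure D1:**
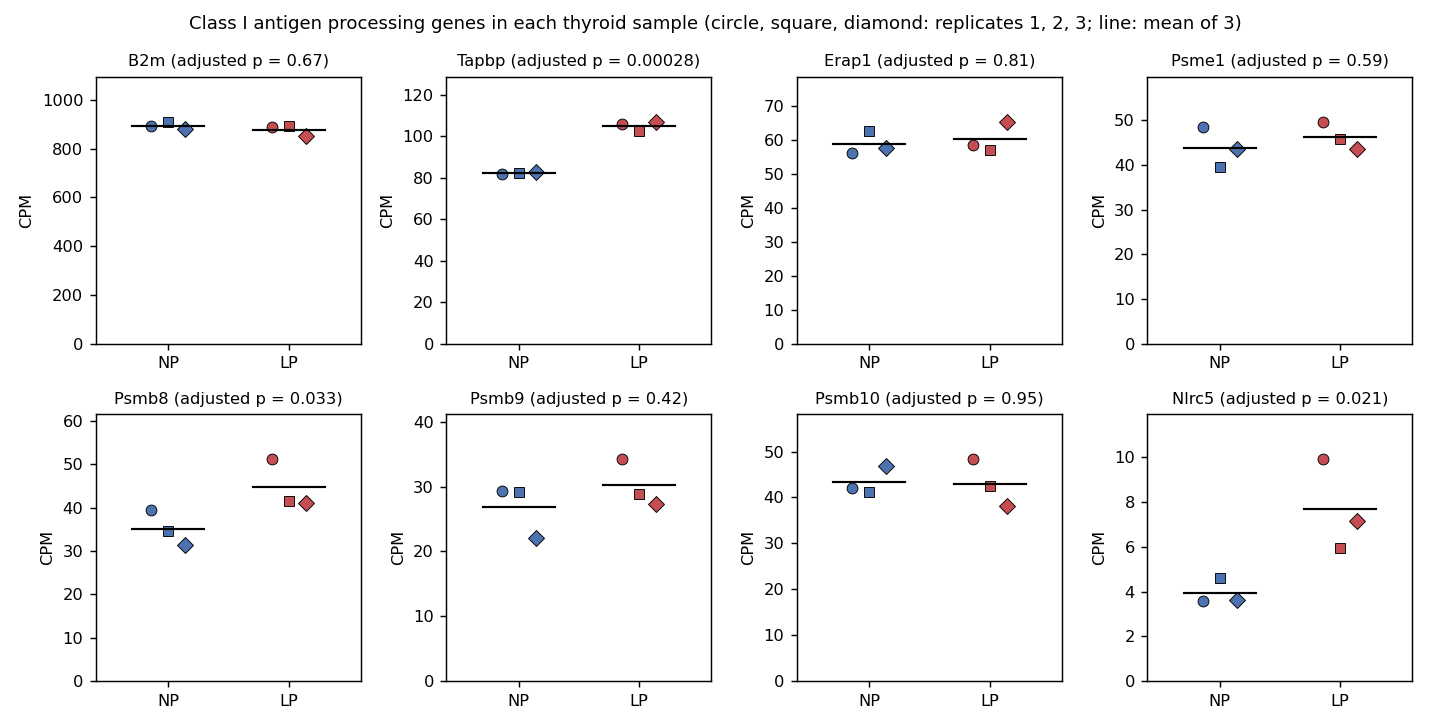
Level of the 8 measured members in each sample, in CPM with TMM scaling from 0, for 3 NP (blue) and 3 LP (red) samples; the lines are means of 3 samples and the titles give edgeR's adjusted p. The LP samples sit above all NP samples for Tapbp, Psmb8 and Nlrc5, and the groups overlap for the other 5 genes.

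Tapbp encodes tapasin, which holds the empty class I molecule next to the peptide transporter. Its level was 81.8, 82.5 and 83.0 CPM in the NP samples and 105.8, 102.4 and 107.2 CPM in the LP samples, or 82.3 ± 0.72 against 105.3 ± 0.70 (SD, n = 2). The replicates of each group lay close together and the groups did not overlap. This was a 1.28-fold increase with a 95% interval of 1.17 to 1.39 (log2 fold change 0.35 ± 0.061 SE, edgeR adjusted p = 0.00028). It passed the threshold under all 14 alternative settings, with adjusted p between 5.4e-06 and 0.013.

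Psmb8 replaces the standard subunit Psmb5 in the immunoproteasome. It was at 39.5, 34.5 and 31.3 CPM in NP and at 51.3, 41.7 and 41.1 CPM in LP. The groups did not overlap, but the lowest LP sample (41.1 CPM) was near the highest NP sample (39.5 CPM), and replicate 1 was the highest of both groups. The increase was 1.27-fold with a 95% interval of 1.08 to 1.51 (log2 fold change 0.35 ± 0.12 SE, edgeR adjusted p = 0.033). The call was lost when replicates 2 and 3 were summed (adjusted p = 0.084), when DESeq2 was the test (0.22), and without NP replicate 2 (0.093), NP replicate 3 (0.15) or LP replicate 1 (0.17).

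Psmb9 and Psmb10, the other immunoproteasome subunits, take the places of Psmb6 and Psmb7. Psmb9 was at 29.4, 29.3 and 22.1 CPM in NP and at 34.3, 28.9 and 27.4 CPM in LP, or 0.16 ± 0.14 SE as log2 fold change (adjusted p = 0.42, 95% interval 0.92- to 1.37-fold). Psmb10 was at 42.0, 41.1 and 46.8 CPM in NP and at 48.4, 42.6 and 38.1 CPM in LP, or -0.013 ± 0.10 SE as log2 fold change (adjusted p = 0.95, interval 0.85- to 1.16-fold). The groups overlapped for both genes, and neither passed under any of the 14 alternatives. The log2 fold change of Psmb9 was 0.031 without NP replicate 3 and 0.059 without LP replicate 1. Psme1, a subunit of the 11S activator that caps the proteasome, was at 48.4, 39.5 and 43.5 CPM in NP and 49.7, 45.8 and 43.5 CPM in LP (log2 fold change 0.083, adjusted p = 0.59, interval 0.92- to 1.22-fold). Without NP replicate 2 its log2 fold change was 0.0052.

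Nlrc5 was the most weakly counted member. It had 10, 14 and 11 reads in NP and 31, 20 and 24 reads in LP, or 3.59, 4.60 and 3.63 CPM against 9.94, 5.95 and 7.15 CPM. Every LP sample lay above every NP sample, and the LP samples differed widely among themselves. The increase was 1.92-fold with a 95% interval of 1.26 to 2.93 (log2 fold change 0.94 ± 0.29 SE, edgeR adjusted p = 0.021). Its adjusted p was 0.051 with replicates 2 and 3 summed, 0.17 with DESeq2, 0.11 without LP replicate 1, 0.058 without NP replicate 1 and 0.075 without NP replicate 3. Its fold change exceeded 2 without NP replicate 2 (log2 1.07) and without LP replicate 2 (1.10).

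B2m, the light chain shared by all class I molecules, was measured with the most reads of the members, between 2491 and 2997 in each sample. It was at 893.3, 911.2 and 879.2 CPM in NP and at 889.6, 891.9 and 850.7 CPM in LP. The groups overlapped, and the log2 fold change of -0.028 ± 0.041 SE (edgeR adjusted p = 0.67) had a 95% interval of 0.92- to 1.04-fold, whose upper bound was below the 1.28-fold of Tapbp. Erap1, the peptidase that trims peptides in the ER, was at 56.3, 62.8 and 57.7 CPM in NP and 58.7, 57.1 and 65.5 CPM in LP. Its log2 fold change was 0.036 (adjusted p = 0.81, interval 0.91- to 1.16-fold). The B2m and Psmb10 windows held matches to the IRF core, as did those of Tapbp and Psmb8, at distances from the start that differed. The part of these matches in the RNA levels was not tested.

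**Figure D2:**
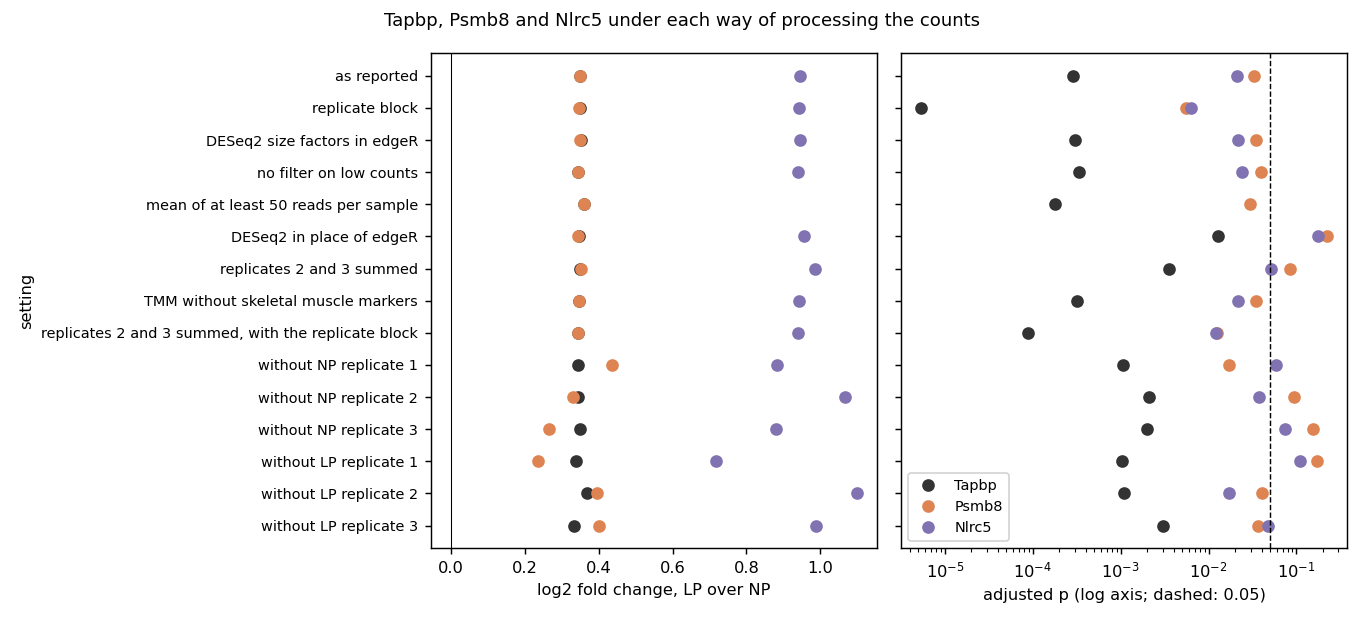
Log2 fold change (left) and edgeR or DESeq2 adjusted p on a log axis (right) of Tapbp, Psmb8 and Nlrc5 under each setting; the dashed line is 0.05. Tapbp stays left of the line in every setting in which it was tested, and Psmb8 and Nlrc5 each cross it in 5 settings.

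Ratios of reads within a library do not depend on how libraries are scaled, and 7 were compared, 5 of them chosen after the values were seen. Each p is from a two-sided exact permutation test, which cannot go below 0.1 with 3 samples against 3. The ratio of Psmb8 to its standard counterpart Psmb5 was 0.373, 0.348 and 0.320 in NP and 0.532, 0.406 and 0.389 in LP. All LP values were above all NP values, a mean difference of 0.34 on the log2 scale (exact permutation p = 0.1, 0.14 adjusted over the 7 ratios), and of 0.20 without LP replicate 1. The ratio of Psmb10 to Psmb7 was 0.619, 0.539 and 0.623 in NP and 0.545, 0.538 and 0.452 in LP, with overlapping groups and a difference of -0.22 (exact permutation p = 0.2), or -0.13 without LP replicate 3. For the third pair, Psmb6 had 0 or 1 read in each sample although it is part of every standard proteasome, so its row cannot be read as its level and no ratio was formed.

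None of the 7 ratios can pass at this number of samples. The ratio of Psmb8 to Psmb10 was 0.940, 0.840 and 0.669 in NP and 1.06, 0.979 and 1.08 in LP, a log2 difference of 0.36 (exact permutation p = 0.1), or 0.22 without NP replicate 3. For Psmb8 to Psmb9 the log2 difference was 0.18 (exact permutation p = 0.1), or 0.10 without NP replicate 2. Both ratios had every LP sample above every NP sample. Tapbp to its homologue Tapbpl was 1.48, 1.68 and 1.66 in NP and 2.24, 2.31 and 2.17 in LP, again without overlap (log2 difference 0.48, exact permutation p = 0.1). Nlrc5 to Ciita, the transactivator of class II genes, differed by 1.24 on the log2 scale (exact permutation p = 0.1), with 10 to 31 reads of Nlrc5 and 11 to 21 of Ciita behind each ratio. Psme1 to its partner Psme2 overlapped between groups, with a difference of 0.069 (exact permutation p = 0.5).

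**Figure D3:**
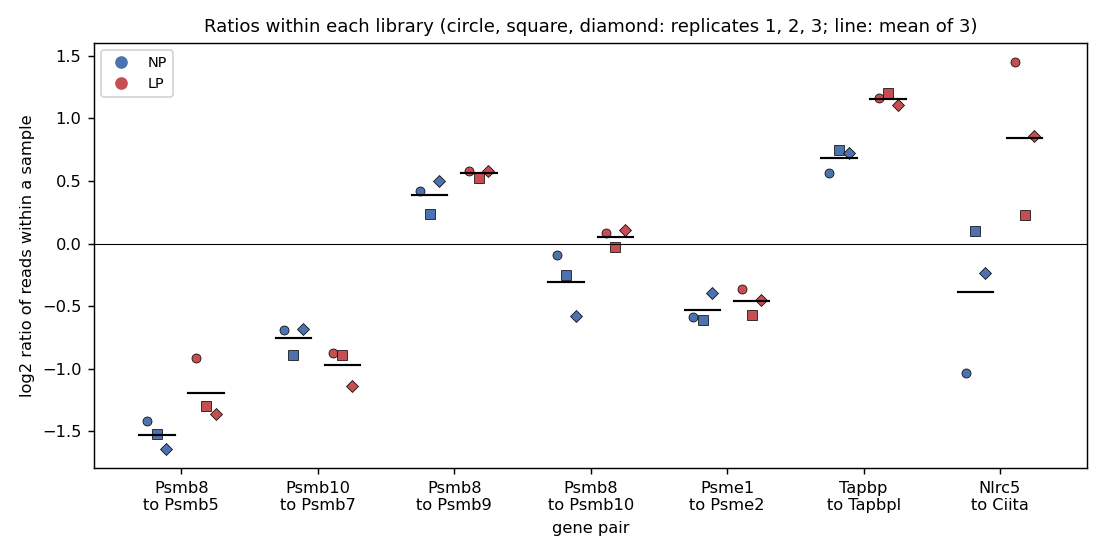
Log2 ratio of reads of gene pairs within each library for NP (blue) and LP (red) samples; lines are means of 3 samples. Psmb8 to Psmb5, Psmb9 and Psmb10, Tapbp to Tapbpl and Nlrc5 to Ciita have all LP values above all NP values, and the remaining 2 pairs overlap.

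Around the members, 81 other genes of the class I pathway were measured and 68 tested, of which 10 rose and 10 fell (median log2 fold change 0.0075). Over all genes tested, 15.3% rose and 11.7% fell. Several partners of tapasin in the ER fell. Of 13 chaperones, translocon subunits and peptidases tested, 7 fell and 2 rose, with a median of -0.24. Calreticulin (Calr) fell by 0.35 on the log2 scale (SE 0.031, adjusted p = 1.21e-07), calnexin (Canx) fell by 0.35 (adjusted p = 2.04e-06) and Pdia3, which is bound to tapasin in the loading complex, fell by 0.24 (adjusted p = 9.23e-05). The general ER chaperone Hspa5 fell by 0.98 and the translocon subunit Sec61a1 by 0.55 (adjusted p = 1.22e-12 and 6.43e-07). The 2 that rose were the cytosolic peptidase Npepps (log2 fold change 0.20, adjusted p = 0.040) and the peptidase Nrd1 (0.50, adjusted p = 4.44e-06). Nrd1 (now Nrdc) is also cytosolic. Npepps did not pass with DESeq2 (adjusted p = 0.37).

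Class I heavy chains bind B2m, and the rat has many near-identical copies, so that reads may be split or lost between them and each value is uncertain. Of 19 heavy chain genes tested, 3 rose (15.8%, against 15.3% of all genes tested) and 1 fell. RT1-A2, RT1-N3 and RT1-T24-4 did not pass, but did with the replicate number as a block (adjusted p = 0.036, 0.034 and 0.0077). Their DESeq2 adjusted p was 0.39, 0.36 and 0.23. No share of all genes that passed with the block is given here. With replicates 2 and 3 summed these 3 had adjusted p = 0.092, 0.093 and 0.089, and with both summing and the block 0.051, 0.043 and 0.024. RT1-S3 was at 184.3, 177.8 and 182.9 CPM in NP and 265.1, 267.2 and 261.8 CPM in LP (log2 fold change 0.54, adjusted p = 5.53e-07). RT1-T24-3 had a log2 fold change of 0.96 (adjusted p = 5.78e-05) and RT1-CE16 of 0.49 (adjusted p = 0.00071), whereas RT1-CE10 fell by 0.42 on the log2 scale (DESeq2 adjusted p = 0.092, edgeR 0.0039). The classical class I genes RT1-A1 and RT1-A2 did not pass, with log2 fold changes of 0.043 (adjusted p = 0.85) and 0.24 (adjusted p = 0.057, 0.036 with the block), nor did Fcgrt, the neonatal Fc receptor chain, which also pairs with B2m (-0.10, adjusted p = 0.24). The heavy chain genes together summed to 660.7 to 673.5 CPM in NP and 771.9 to 787.7 CPM in LP. The 3 that rose made up 232.0 to 235.9 CPM of this in NP and 343.6 to 347.5 in LP, and the other 24 summed to 428.3 to 437.5 and 428.3 to 440.2 CPM, a split made after the values were seen. The standard catalytic subunits Psmb5 and Psmb7 did not pass (log2 fold changes 0.012 and 0.20, adjusted p = 0.92 and 0.052). Psmb7 had adjusted p = 0.034 with the block, 0.055 with the block and summing, and 0.38 with DESeq2. Psme2 did not pass (log2 fold change 0.014, adjusted p = 0.93). Of the 7 activator and assembly genes tested 1 rose, the proteasome cap Psme4 (0.31, adjusted p = 0.00094).

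**Figure D4:**
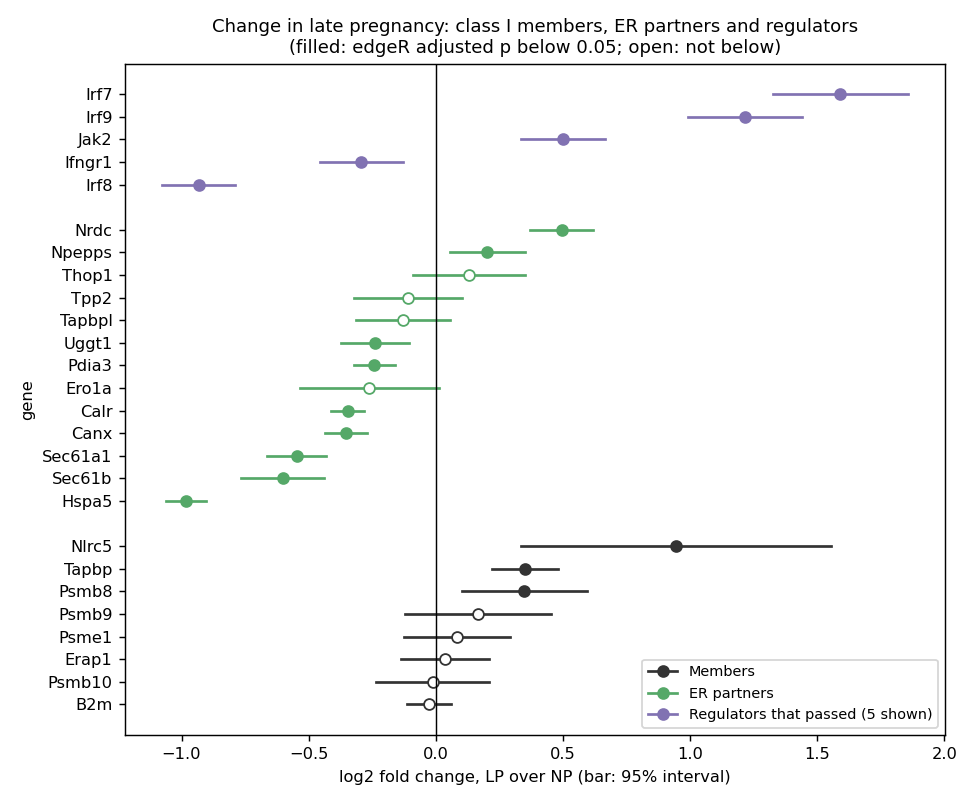
Log2 fold change of LP over NP with its 95% interval for the 8 members (black), 13 ER partners and peptidases (green) and 5 regulators that passed (purple); filled points have an edgeR adjusted p below 0.05. Members lie at or above 0 apart from B2m and Psmb10, and the chaperones Hspa5, Calr and Canx lie below 0.

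Of 27 regulators tested, 4 rose (14.8%, against 15.3% of all genes tested) and 2 fell (median log2 fold change 0.015). The study had named 2 of the 30 measured as changed in these libraries. Irf7 rose by 1.59 (adjusted p = 2.73e-08), Irf9, which acts in the type I interferon response, by 1.22 (adjusted p = 1.05e-07) and the kinase Jak2 by 0.50 (adjusted p = 9.80e-05) on the log2 scale. Irf8, a factor of lymphoid and myeloid cells, fell by 0.93 (adjusted p = 8.45e-09) and the interferon gamma receptor chain Ifngr1 fell by 0.29 (adjusted p = 0.0087). With DESeq2 the adjusted p of Ifngr1 was 0.12. Stat2 (-0.17, adjusted p = 0.13) and Stat3 (0.075, adjusted p = 0.42), which had the most reads of the list, did not pass. The adjusted p of Stat2 was 0.0067 with the block and 0.32 with DESeq2. Irf1, a known activator of class I genes, was at 34.1, 36.5 and 36.9 CPM in NP and 43.9, 40.8 and 42.0 CPM in LP, and did not pass (log2 fold change 0.23, adjusted p = 0.090).

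Of 37 other interferon stimulated genes tested, 29 rose and 0 fell, with a median log2 fold change of 0.85. Over all genes tested, 15.3% rose and 11.7% fell. In this list 0 were lower also at an unadjusted p below 0.05 and with DESeq2. The study named 16 of the 43 measured genes of this list as changed in these same libraries, so the count is not independent evidence of their direction. Ifi27 was at 159.6, 161.1 and 158.5 CPM in NP and 516.4, 484.8 and 476.6 CPM in LP (log2 fold change 1.62, adjusted p = 2.10e-13), and Mx2, an antiviral GTPase, had a log2 fold change of 1.57 (adjusted p = 1.62e-09). Ifi27l2b had a log2 fold change of 1.73 (adjusted p = 2.86e-12) and Lgals3bp, a secreted glycoprotein, of 0.87 (adjusted p = 1.49e-10). Of the 37 genes, 14 passed the 2-fold criterion. The IRF core was found in 24 of 34 promoter windows of this list, against 9.71% of all windows. For the class I heavy chains it was 4 of 30 windows. Of 6 class II genes tested, 0 rose and 2 fell, RT1-Da (log2 fold change -0.28, adjusted p = 0.0061) and RT1-Db1 (-0.34, adjusted p = 0.028). At an unadjusted p below 0.05, 0 were higher. DESeq2 called 0 of them higher and 0 lower (adjusted p = 0.12 and 0.27), and the invariant chain Cd74 did not pass (-0.061, adjusted p = 0.54).

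**Figure D5:**
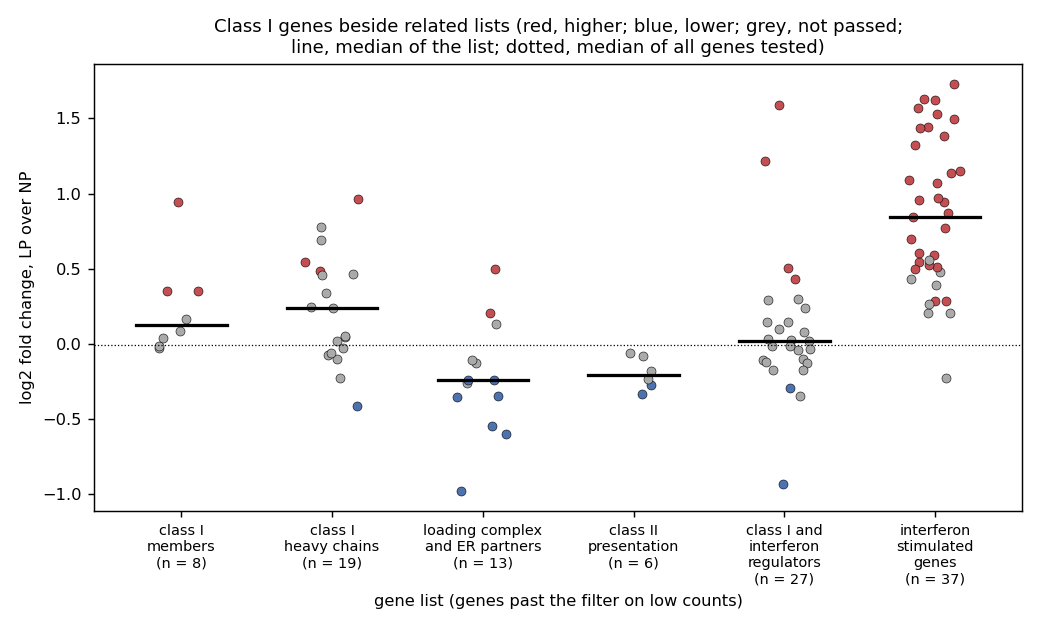
Log2 fold change of LP over NP of every tested gene in the class I members (n = 8), class I heavy chains (n = 19), loading complex and ER partners (n = 13), class II presentation genes (n = 6), regulators (n = 27) and interferon stimulated genes (n = 37); black lines are list medians and the dotted line is the median of all genes tested. The interferon stimulated genes have a median of 0.85 and the members one of 0.12.

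Class I genes are expressed by every nucleated cell and strongly by leukocytes, so cell markers were read beside them. In such bulk samples, more cells of a type and more RNA per cell cannot be told apart. Of 8 leukocyte markers tested, 0 rose in edgeR (1 at an unadjusted p below 0.05, 0 with DESeq2) and 1 (Cd48) fell. Cd48 did not pass with DESeq2 (adjusted p = 0.14, edgeR 0.0069). The 10 markers measured summed to 196.7 to 203.5 CPM in NP and 182.9 to 203.2 CPM in LP. The 16 macrophage and dendritic cell markers summed to 192.8 to 214.7 CPM in NP and 203.0 to 229.7 in LP, and 0 of 13 tested passed in edgeR (2 higher and 1 lower at an unadjusted p below 0.05, 0 with DESeq2, 1 higher with the block). The 15 T and NK cell markers summed to 25.7 to 27.6 CPM in NP and 21.1 to 25.3 in LP, lower in every LP sample, and Cd4 (35 to 43 reads a sample) and Lck, which could be tested, did not pass (adjusted p = 0.85 and 0.43). The T and NK cell markers Cd3d, Cd3g, Cd8a, Cd8b, Cd5, Cd6 and Nkg7 had 3 reads or fewer in every sample. So did the B cell marker Cd79a. The T and NK cell sum thus rests on few reads and does not show fewer of these cells in LP. Of 9 endothelial markers tested 6 fell, and the list summed to 1336 to 1388 CPM in NP against 1145 to 1175 in LP. Of 24 skeletal muscle markers tested 22 rose, 23 of the 26 measured having been named by the study, and the list summed to 46.3 to 96.3 CPM in NP and 7850 to 8347 CPM in LP. The part of these cells, or of follicular, C and parathyroid cells, in the class I values was not tested. With TMM scaling computed without the muscle markers, the log2 fold changes were 0.35 for Tapbp, 0.35 for Psmb8, 0.94 for Nlrc5 and -0.030 for B2m.

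Among themselves the members varied only loosely together. Of the 28 pairs of members, 19 had a positive correlation of log2 CPM over the 6 samples, with a median r of 0.31. Averaged after scaling each gene to its own spread, the members were highest in LP replicate 1 (0.98 SD) and lowest in NP replicate 3 (-0.65), and LP replicates 2 (0.14) and 3 (-0.025) stood between. The genes tested whose log2 CPM followed this average most closely over the 6 samples were Hp (r = 0.989), Topors (0.988), Map2k2 (0.986), Camkk2 (0.983) and Fam220a (0.973). These r values describe 6 samples that share 2 groups and include near-duplicate libraries.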

How the data were processed

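Thyroid poly(A)+ RNA of 3 NP and 3 LP (day 18) rats was sequenced. For each library the authors aligned reads with TopHat v1.4.0 (rat build rn5), ran HTSeq-count on Ensembl release 81 models, and deposited the raw counts, each row pairing a transcript ID with a gene name. How multiply mapped reads and strand were treated is not given in the sources used here. The test was edgeR 4.0.16 under R 4.3.3 (filterByExpr, TMM, glmQLFit and glmQLFTest, Benjamini-Hochberg over the 11738 genes tested). This step was tested on simulated data, with independent libraries and changes of 2-fold or more. The simulation does not cover near-duplicate libraries or changes as small as those of the members. The standard error was taken as the absolute log2 fold change over the square root of F, and the 95% interval from it. CPM carry TMM scaling. Ratios of reads used a pseudocount of 0.5 and a two-sided exact permutation test. Their p-values were to be adjusted over 3 planned pairs, but 1 pair could not be formed and 5 were added after the values were seen, so they were adjusted over 7. No column was without a sample (0).

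Members and lists were chosen with earlier results of these data known. The naming rule took all members, the standard catalytic subunits, Psme2, and from each other list up to 4 genes of lowest p and 2 of highest mean count, plus the 5 genes most like the members. For activator genes and cell markers mainly sums and counts are printed. Named outside the rule, after their values were seen, were Irf1, RT1-A1, RT1-A2, RT1-N3, RT1-T24-4, Duox2, Tapbpl, Ciita, Npepps, Nrd1, Pdia3, Jak2, Ifngr1 and the T and B cell markers. Some genes that the rule or the lists hold are counted in the lists but not reported here by name.

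Same-numbered NP and LP samples deviated together from their group means (correlations 0.474, 0.210 and 0.175 across genes). The numbers were therefore taken to pair the samples, a hint from the data and not the labels. NP replicate 2 with LP replicate 3 gave 0.202, and NP replicate 3 with LP replicate 2 gave 0.203. Both were above the 0.175 of the replicates numbered 3. The correlations thus set replicate 1 apart, but do not show how replicates 2 and 3 pair. Alternatives were a replicate block, DESeq2 1.42.0, its size factors, other filters, TMM without muscle markers, replicates 2 and 3 summed, and each replicate left out. Gene coordinates of rn5 were not used here.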

Additional observations from a re-analysis of the deposited data

How the results depend on the processing

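The count of 3 members higher in LP fell to 1 (Tapbp) under DESeq2 and to 1 after summing replicates 2 and 3. Leaving out single replicates gave 1 to 3, being 1 without NP replicate 3 and without LP replicate 1. Pairing by a replicate block gave 3 and changed no call among the members, and summing with the block, a setting chosen after the data were seen, gave 3 as well. With the block, edgeR's common biological coefficient of variation was 0.0131, against 0.0645 without it. The count past 2-fold was 0 and lay between 0 and 1 with a replicate left out (Nlrc5). Psmb10, which never passed, changed sign to 0.0013 on the log2 scale with replicates 2 and 3 summed and ranged from -0.11 to 0.064 with a replicate left out, and Erap1 ranged from -0.031 to 0.078. With single replicates left out, the log2 differences of the ratios ranged from 0.20 to 0.42 for Psmb8 to Psmb5, -0.28 to -0.13 for Psmb10 to Psmb7, 0.10 to 0.23 for Psmb8 to Psmb9, 0.22 to 0.47 for Psmb8 to Psmb10, 0.018 to 0.14 for Psme1 to Psme2, 0.42 to 0.51 for Tapbp to Tapbpl and 0.91 to 1.54 for Nlrc5 to Ciita. A filter of at least 50 reads on average left Nlrc5 untested. Of the other pathway genes, 10 rose, against 14 with the block, 9 with replicates 2 and 3 summed and 12 with both. When single replicates were left out, 9 to 12 rose and 9 to 11 fell. No share of all genes is given here for these alternatives. The ratio of Psmb9 to Psmb6 could not be formed. Groups of 3 samples are too small for a check of outlying samples.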
